A study of Arabidopsis thaliana with 12 samples.

Results

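The berberine bridge enzyme-like proteins and their relatives are enzymes that bind flavin adenine dinucleotide (FAD) through a shared domain, and 39 of the 32833 genes in the deposited table made up the group described here. They are the 46 genes that the table assigns to its FAD-binding oxidase annotation, without the 7 cytokinin oxidases. The family was selected on a measured value, the level after PEP3 alone against that after DMSO, because many members were higher. That difference is therefore given below as a description, with no p-value, and nothing is read from how many members show it.

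The libraries came from whole seedlings of the Arabidopsis thaliana accession Col-0 (wild type), 10 days old and grown in liquid medium. Seedlings were collected 6 h after 1 of 4 treatments: isoxaben (600 nM) plus PEP3 (10 nM), isoxaben alone at 600 nM, PEP3 alone at 10 nM, or DMSO alone. Isoxaben is a herbicide that blocks cellulose synthesis, and PEP3 is a small peptide of the plant elicitor peptide family that cell-surface receptors read as a sign of damage. The solvent DMSO was present in every treatment, each treatment had 3 libraries described as biological replicates, and the labels do not say which wells or days the replicates came from, so p-values measure the spread between these libraries.

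Berberine bridge enzyme-like proteins mostly carry a signal for secretion. The members with a known substrate oxidise sugars, cell wall fragments, lignin precursors or indole compounds. Some of them, but not all, pass the electrons readily to oxygen, which yields hydrogen peroxide. FOX1 makes indole carbonyl nitrile, a defence compound. The oligogalacturonide oxidases and the cellodextrin oxidase act on fragments of pectin and cellulose, and the oxidised fragments elicit weaker immune responses. Relatives outside the berberine bridge branch include enzymes of ascorbate, brassinosteroid and organic acid metabolism.

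Between 16995775 and 22793764 fragments were assigned to genes per library. Levels are given as the authors' FPKM, fragments scaled by gene length and library size. Each change is a difference in log2(FPKM + 1), in which a gene near 0 changes by less than its ratio would show. A gene was called where its limma adjusted p was under 0.05, with the adjustment made over the 20248 genes whose mean reached 0.5 FPKM. Root marker genes (6) summed to between 49.98 and 61.1 FPKM in every library and none was called. Shoot markers other than RBCS-1A summed to 389 to 632 FPKM after isoxaben plus PEP3, 289 to 408 after isoxaben, 419 to 705 after PEP3 and 630 to 840 after DMSO. These sums come mostly from LHCB1.1 and LHCB2.1, with means of 224 and 97.1 FPKM after isoxaben. SPCH, FAMA and ATML1 averaged 4.94, 4.35 and 7.86 FPKM there. Of the 6 shoot markers, LHCB1.1 and LHCB2.1 were lower after isoxaben than after DMSO, and the other 4 were not called. LHCB2.1 was higher after isoxaben plus PEP3 than after isoxaben. The part of these markers in the results was not tested. In whole seedlings, fewer cells of a type and less RNA per cell cannot be told apart.

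Of the 39 members, 26 passed the filter on low values: 18 of 27 berberine bridge enzyme-like genes, 4 of 6 gulonolactone oxidase-like genes and 4 of 6 others. FOX2 and FOX4 passed it only through the groups where they were high, the 2 treatments with PEP3. Counts of members called for isoxaben plus PEP3 relative to isoxaben or to DMSO are therefore also given without them. The other 13 never exceeded 0.424 FPKM in a library. No fragment was found in any of the 12 libraries for 6 of them (BBE2, BBE9, BBE14, GULLO1, AT1G04887 and AT4G20835). The remaining 7, among them FOX3, the oligogalacturonide oxidase gene OGOX4, AT5G44360, BBE17, AT1G30740, AT5G44440 and GULLO4, had at most 59 fragments summed over the 12 libraries. AT1G04887 and AT4G20835 lie antisense to BBE2 and BBE19. AT4G20835 overlaps 66.7% of BBE19, and since the sources used here do not say whether counting used strand, the BBE19 values are uncertain to that extent. The lack of fragments for BBE2 is uncertain in the same way, since AT1G04887 overlaps 73.8% of it and AT1G11780, also antisense, 30.5%. AT1G04887 and AT4G20835 are themselves overlapped over 100% of their length, so their lack of fragments is uncertain too.

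Most berberine bridge enzyme-like genes sit in tandem arrays. FOX1 to FOX5 fill 1 array on chromosome 1 (build TAIR10, FOX1 at chr1:9126737-9128568 and FOX5 at chr1:9141519-9143336, all on the minus strand), and BBE8 to AT1G30760 form another of 6 genes on that chromosome (BBE8 at chr1:10892445-10894714). Another array holds BBE17, BBE18, BBE19, AT4G20835, BBE21 and CELLOX1 on chromosome 4, and a further one of 6 runs from AT5G44360 to AT5G44440 on chromosome 5. Of the 27 proteins, 20 are encoded by a single coding exon, and their lengths run from 526 to 603 residues. Identity between berberine bridge enzyme-like proteins of the same array was 42.6% to 84.3% (median 47.8%, 51 pairs), against 40.2% to 86.9% (median 46.5%, 300 pairs) for those of different places. No member had a copy of at least 95% identity over 50% or more of its gene. The closest pair, FOX1 and FOX2, was 87.6% identical, so reads of one could in part have been counted for the other. The same limit holds for other close pairs, among them FOX4 and FOX5 with FOX1 (87.3% each) and BBE19 with BBE21 (86.7%).

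The FOX genes are shown first because they include the largest changes and because neighbours in this array differed in how they responded. The 300 bases before each annotated gene start follow, read 5′ to 3′ on the minus strand of the RefSeq TAIR10.1 sequence, with each W box in capitals. The W box, TTGACC or TTGACT on either strand, is the sequence that WRKY transcription factors bind.
FOX1 (chr1:9128569-9128868): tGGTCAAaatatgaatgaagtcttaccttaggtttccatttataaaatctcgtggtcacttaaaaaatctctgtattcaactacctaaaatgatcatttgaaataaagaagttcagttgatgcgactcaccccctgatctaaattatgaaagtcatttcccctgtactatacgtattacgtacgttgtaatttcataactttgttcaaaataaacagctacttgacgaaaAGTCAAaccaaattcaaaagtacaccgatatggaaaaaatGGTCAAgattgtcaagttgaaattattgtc
FOX2 (chr1:9131780-9132079): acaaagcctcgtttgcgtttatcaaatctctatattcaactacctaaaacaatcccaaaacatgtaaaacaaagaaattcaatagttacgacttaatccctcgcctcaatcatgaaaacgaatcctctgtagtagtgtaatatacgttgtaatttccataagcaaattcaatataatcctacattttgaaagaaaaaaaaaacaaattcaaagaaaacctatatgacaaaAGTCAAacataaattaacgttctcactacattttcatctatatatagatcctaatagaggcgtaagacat
FOX3 (chr1:9134875-9135174): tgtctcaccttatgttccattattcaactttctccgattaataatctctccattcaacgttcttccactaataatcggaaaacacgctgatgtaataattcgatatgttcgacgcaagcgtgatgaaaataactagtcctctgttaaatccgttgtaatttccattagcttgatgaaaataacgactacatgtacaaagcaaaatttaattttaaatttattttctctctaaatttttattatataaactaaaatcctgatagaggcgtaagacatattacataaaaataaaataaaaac
FOX4 (chr1:9140440-9140739): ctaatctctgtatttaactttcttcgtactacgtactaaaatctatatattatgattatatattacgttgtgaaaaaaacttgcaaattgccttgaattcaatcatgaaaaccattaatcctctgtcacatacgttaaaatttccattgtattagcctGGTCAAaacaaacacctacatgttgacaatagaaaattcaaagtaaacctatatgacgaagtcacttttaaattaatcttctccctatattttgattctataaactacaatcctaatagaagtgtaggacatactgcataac
FOX5 (chr1:9143337-9143636): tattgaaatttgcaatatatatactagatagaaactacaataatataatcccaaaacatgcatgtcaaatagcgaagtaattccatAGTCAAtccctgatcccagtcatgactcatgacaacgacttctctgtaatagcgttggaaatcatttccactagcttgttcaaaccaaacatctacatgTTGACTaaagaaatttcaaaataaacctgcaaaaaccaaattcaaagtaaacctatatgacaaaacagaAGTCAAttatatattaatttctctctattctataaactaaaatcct
The FOX1 window holds 3 W boxes, 299, 70 and 30 bases before the gene start, and the FOX5 window holds 3, at 214, 115 and 46 bases. FOX2 has 1 at 70 bases and FOX4 has 1 at 142 bases, while the FOX3 window has none. A window of this length held a W box in 15 of the 26 tested members (57.7%), against 32.2% of the 19541 tested protein-coding genes. Of the 9 members that were called higher after isoxaben plus PEP3 than after isoxaben, 8 had a W box, against 7 of the other 17. These counts include FOX2 and FOX4 and related neighbours of the same arrays, which are not independent, and the difference was not tested. No tested member had a G box (CACGTG, found before 7.88% of genes) or a GCC box (GCCGCC, 2.38%), so no W box overlapped either of these. These are matches of letters, not measured binding.

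FOX1 (AT1G26380) was the member with the largest change in each of the 3 comparisons with DMSO. Its level was 40.9, 49.0 and 46.3 FPKM after isoxaben plus PEP3, 29.6, 42.5 and 19.1 FPKM after isoxaben, 21.3, 33.7 and 33.1 FPKM after PEP3, and 0.911, 1.57 and 1.65 FPKM after DMSO. Every treated library lay far above every DMSO library. The isoxaben libraries overlapped those of PEP3 and, through isoxaben replicate 2, those of the combined treatment. FOX1 rose by 3.67 on the log2 scale (SE 0.237, limma adjusted p 8.71e-08) after isoxaben relative to DMSO and by 4.30 (limma adjusted p 2.93e-08) after both agents. After PEP3 alone it was 3.66 higher than after DMSO, the value by which the family was chosen. Adding PEP3 to isoxaben gave a difference of 0.63 that did not pass the test (limma adjusted p 0.135), nor did the difference of 0.64 between isoxaben plus PEP3 and PEP3 (limma adjusted p 0.128). Both passed with voom on recovered fragments, at adjusted p 0.0466 and 0.0387, the first also passed without isoxaben replicate 2 (limma adjusted p 0.0327), and the second without isoxaben replicate 3 (limma adjusted p 0.0483) and in a fit of only its 6 libraries (limma adjusted p 0.0388). In the order of mean FPKM among the 26 members, FOX1 stood at place 5 in all 3 treated groups and at place 22 after DMSO.

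FOX5 (AT1G26420) followed FOX1 at lower levels. It had 21.8, 22.3 and 21.6 FPKM after isoxaben plus PEP3, 12.0, 15.5 and 10.3 FPKM after isoxaben, 11.7, 11.5 and 13.9 FPKM after PEP3, and 1.56, 1.37 and 1.72 FPKM after DMSO. The combined treatment lay above each single treatment in every library, and the isoxaben and PEP3 libraries overlapped. FOX5 rose by 2.40 after isoxaben relative to DMSO (SE 0.121, limma adjusted p 1.06e-08), by 3.17 after both agents relative to DMSO (limma adjusted p 1.41e-09), by 0.77 after both relative to isoxaben (limma adjusted p 0.00200) and by 0.78 after both relative to PEP3 (limma adjusted p 0.00113). After PEP3 alone it was 2.39 higher than after DMSO.

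FOX2 (AT1G26390) and FOX4 (AT1G26410), which lie between FOX1 and FOX5, were high only in the 2 treatments that contained PEP3. FOX2 had 3.28, 3.61 and 4.03 FPKM after isoxaben plus PEP3, 0.145, 0.253 and 0 FPKM after isoxaben, 1.97, 5.91 and 6.79 FPKM after PEP3, and 0.0525, 0.157 and 0.367 FPKM after DMSO. These levels rest on 102 to 134 fragments per library after both agents and on 0 to 10 after isoxaben. The isoxaben and DMSO libraries of FOX2 overlapped. FOX2 rose by 2.04 after isoxaben plus PEP3 relative to isoxaben (SE 0.276, limma adjusted p 7.66e-04) and by 1.97 relative to DMSO (limma adjusted p 1.19e-04), and its difference of -0.07 between isoxaben and DMSO did not pass (limma adjusted p 0.876). With no filter on low values, both rises still passed (limma adjusted p 0.0192 and 0.00327). FOX2 averaged 2.54 FPKM over the 6 libraries of PEP3 and DMSO, which the comparison of isoxaben plus PEP3 with isoxaben does not use, above the filter of 0.5 FPKM. That mean comes from the PEP3 libraries (mean 4.89 FPKM, against 0.192 after DMSO), a group where FOX2 was high. After PEP3 alone FOX2 was 2.20 higher than after DMSO. Its difference of -0.23 between isoxaben plus PEP3 and PEP3 did not pass (limma adjusted p 0.696) but did without PEP3 replicate 1, at -0.66 (limma adjusted p 0.0295).

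FOX4 had 4.28, 4.74 and 4.92 FPKM after isoxaben plus PEP3, 0.391, 0.754 and 0.348 FPKM after isoxaben, 2.92, 3.50 and 3.54 FPKM after PEP3, and 0.126, 0.151 and 0.206 FPKM after DMSO. Its 4 groups did not overlap. It rose by 1.92 after isoxaben plus PEP3 relative to isoxaben (SE 0.130, limma adjusted p 2.97e-06) and by 2.28 relative to DMSO (limma adjusted p 3.76e-08), and it was 1.89 higher after PEP3 than after DMSO. With no filter, both rises of FOX4 still passed (limma adjusted p 3.55e-04 and 6.40e-06). Its mean over the libraries of PEP3 and DMSO was 1.74 FPKM, which likewise comes from those of PEP3 (mean 3.32 FPKM, against 0.161 after DMSO). The difference of 0.36 between isoxaben and DMSO was at the threshold (limma adjusted p 0.0497). It was called in only 1 of 12 fits that each left out 1 library, the one without isoxaben replicate 3. The limma adjusted p of these fits lay between 0.0347 and 0.204. Every isoxaben library of FOX4 lay above every DMSO library, on 14, 31 and 11 fragments against 5, 5 and 7. At such low levels the log2(FPKM + 1) scale shows less than the ratio. The fifth gene, FOX3, had fragments in 2 of 12 libraries, both from the PEP3 treatment (3 and 2 fragments).

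**Figure D1:**
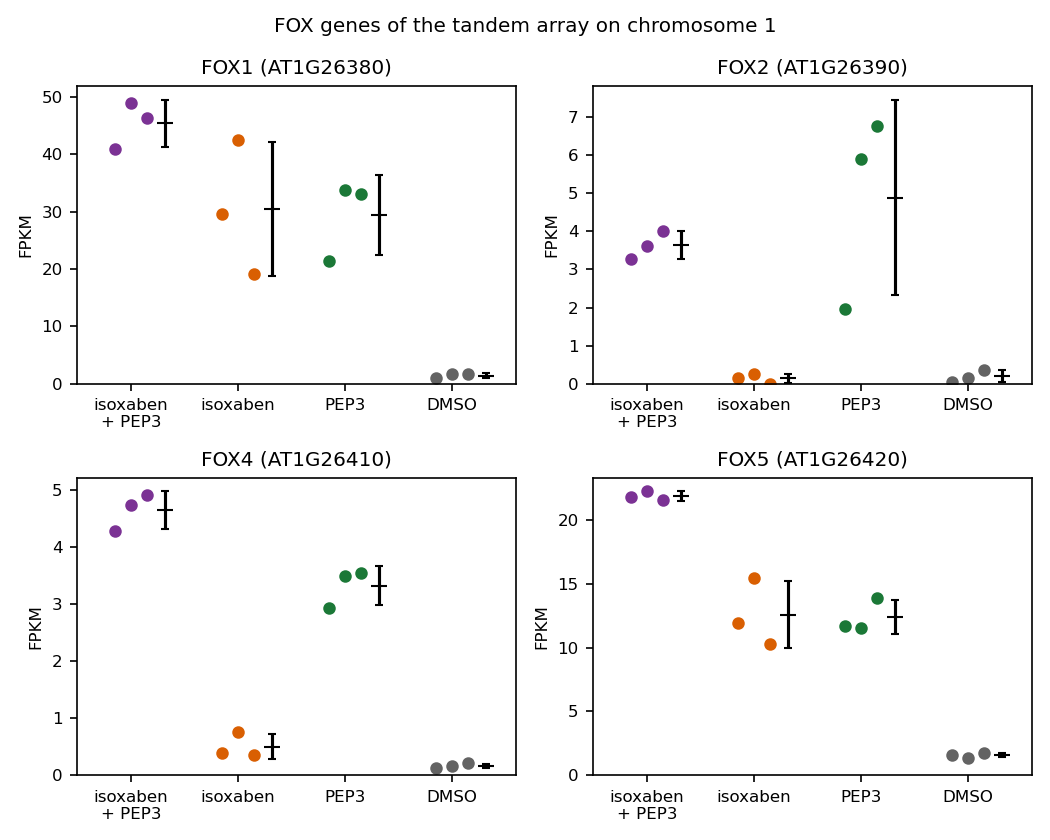
Level in FPKM (vertical axes, each starting at 0) of the 4 FOX genes that passed the filter, with a point for each library of isoxaben plus PEP3, isoxaben, PEP3 and DMSO and the mean ± SD of 3 libraries beside them. FOX1 and FOX5 are high in all 3 treated groups, whereas FOX2 and FOX4 stay under 1 FPKM in every isoxaben and DMSO library and lie between 1.97 and 6.79 FPKM in the libraries with PEP3.

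Across the family, isoxaben relative to DMSO called 18 of the 26 tested members, 13 higher and 5 lower. Among all genes tested, 32.5% were called, 17.3% higher and 15.2% lower. The median change was 0.33 for the members and -0.0065 for all genes. The berberine bridge enzyme-like genes accounted for 16 of the 18 calls (12 higher, 4 lower), with GULLO2 higher and DWF1 lower as the other ones. Isoxaben plus PEP3 relative to DMSO called 18 members, 14 higher and 4 lower, where 31.4% of all genes were called (16.9% higher, 14.4% lower). The members' median was 0.49. Without FOX2 and FOX4, this comparison called 16 of 24 members, 12 higher and 4 lower. Both comparisons share their DMSO libraries with the contrast that selected the family.

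The comparison of isoxaben plus PEP3 with isoxaben uses none of the libraries of that contrast. It called 9 of 26 members, all higher, where 7.41% of all genes were called, 3.32% higher and 4.09% lower. Some alternatives also called members lower: BBE16 with TPM scaling and with a replicate block (9 higher and 1 lower in each) and without isoxaben replicate 3 (8 higher, 1 lower), and BBE16 and BBE25 with voom on recovered fragments (10 higher, 2 lower). Without FOX2 and FOX4, which passed the filter only through groups where they were high, 7 of 24 members were called, all higher. The 9 were FOX2, FOX4, FOX5, BBE8, BBE10, BBE11, BBE21, AT5G44380 and GULLO2. The median change was 0.28 for the members and -0.0023 for all genes. Of these 9 members, 7 were also higher after isoxaben than after DMSO, BBE21 was lower and FOX2 was not called. Isoxaben plus PEP3 relative to PEP3 called 6 members, 5 higher (FOX5, BBE11, BBE19, CELLOX1 and BBE25) and BBE27 lower, where 8.26% of all genes were called (6.02% higher, 2.25% lower). It shares its PEP3 libraries with the selecting contrast. For PEP3 against DMSO, the contrast that chose the family, the same rule counts 15 members (13 higher, 2 lower) and 14.3% of all genes (7.84% higher, 6.45% lower). This count is fixed in part by the choice of the family and is given as a description only.

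**Figure D2:**
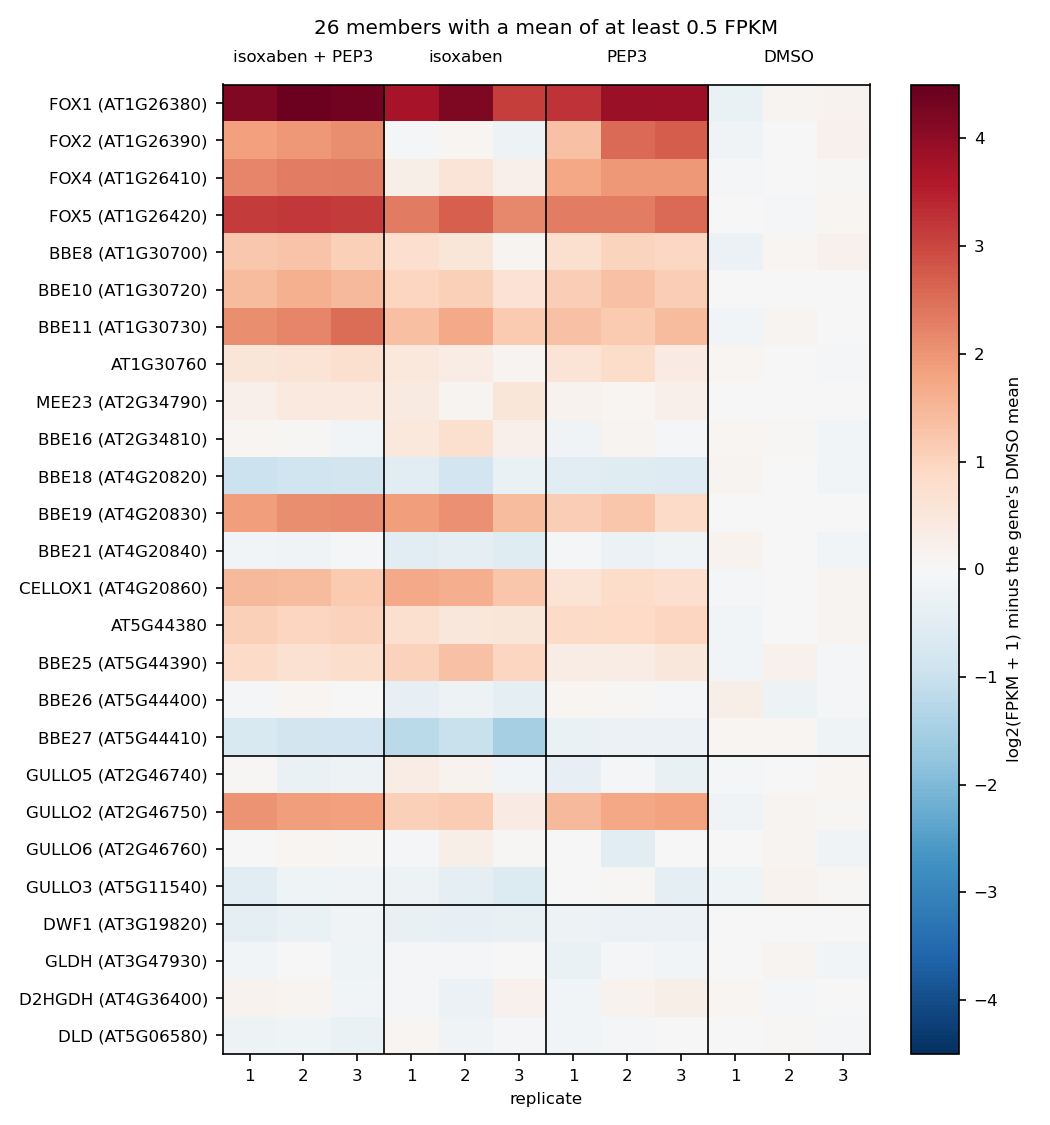
Log2(FPKM + 1) of each library minus the mean of the 3 DMSO libraries of the same gene, for the 26 members that passed the filter (rows) in the 12 libraries (columns, by treatment and replicate), with red above and blue below the DMSO mean. The FOX genes reach the darkest red, BBE19 and CELLOX1 are darkest in the 2 treatments with isoxaben, and BBE18 and BBE27 are blue in every treated library.

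In the array of 6 genes that begins with BBE8, BBE11 changed most. BBE11 (AT1G30730) had 15.6, 17.1 and 21.1 FPKM after isoxaben plus PEP3, 9.11, 11.8 and 7.75 FPKM after isoxaben, 8.80, 7.84 and 9.45 FPKM after PEP3, and 2.60, 3.31 and 2.86 FPKM after DMSO. The combined treatment lay above both single treatments in every library. It rose by 1.42 after isoxaben relative to DMSO (limma adjusted p 4.40e-06), by 2.27 after both relative to DMSO (limma adjusted p 9.02e-08), by 0.85 relative to isoxaben (limma adjusted p 0.00268) and by 0.96 relative to PEP3 (limma adjusted p 6.92e-04). BBE8 and BBE10 rose by 1.20 and 1.51 after both agents relative to DMSO (limma adjusted p 6.27e-05 and 4.46e-07), and by 0.72 and 0.61 when PEP3 was added to isoxaben (limma adjusted p 0.0138 and 0.00569). For BBE8 the call on adding PEP3 was lost without isoxaben plus PEP3 replicate 2 (limma adjusted p 0.0548). BBE8 was also called after isoxaben relative to DMSO, by 0.47 (limma adjusted p 0.0323), but not without DMSO replicate 1 or isoxaben replicate 1 or 2, with adjusted p up to 0.152. The differences of BBE8 and BBE10 between isoxaben plus PEP3 and PEP3 did not pass, except that of BBE10 without isoxaben replicate 3 (limma adjusted p 0.0328) and with voom (adjusted p 0.0441). AT1G30760 encodes an enzyme that oxidises monolignols, the alcohols from which lignin is built. It had 8.33, 8.87 and 9.60 FPKM after isoxaben plus PEP3, 7.92, 7.14 and 5.96 FPKM after isoxaben, 8.77, 10.4 and 7.39 FPKM after PEP3, and 5.85, 5.47 and 5.07 FPKM after DMSO. Its rise of 0.62 after both agents relative to DMSO passed (limma adjusted p 0.00146), and its differences in the other 3 tested comparisons did not. The difference of 0.30 after isoxaben relative to DMSO was called without isoxaben replicate 3 or without PEP3 replicate 3 (limma adjusted p 0.0260 and 0.0480).

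MEE23 (AT2G34790), whose product also oxidises monolignols, lies on chromosome 2 beside BBE16. It had 4.95, 5.96 and 5.82 FPKM after isoxaben plus PEP3, 5.74, 4.52 and 6.41 FPKM after isoxaben, 4.73, 4.40 and 4.95 FPKM after PEP3, and 4.01, 4.05 and 4.20 FPKM after DMSO. Its differences of 0.36 after isoxaben and 0.37 after both relative to DMSO were called (limma adjusted p 0.0255 and 0.0229), each in only 8 of 12 fits that left out 1 library. The first was lost without DMSO replicate 1 or 2 or isoxaben replicate 1 or 3, and the second without DMSO replicate 1 or 2 or isoxaben plus PEP3 replicate 2 or 3, with adjusted p up to 0.105 and 0.0828. BBE16 was called higher after isoxaben relative to DMSO (0.47, limma adjusted p 0.0164), but not without DMSO replicate 3 or isoxaben replicate 2 (limma adjusted p 0.0608 and 0.0840). Its difference of -0.47 between isoxaben plus PEP3 and isoxaben missed the threshold (limma adjusted p 0.0545) and was called without isoxaben replicate 3 (limma adjusted p 0.0189).

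Of the oxidase genes of pectin and cellulose fragments on chromosome 4, BBE19 and CELLOX1 rose after isoxaben relative to DMSO, and their neighbour BBE21 fell. BBE19 (AT4G20830, chr4:11155453-11157806), the oligogalacturonide oxidase OGOX1, had 80.8, 93.8 and 94.7 FPKM after isoxaben plus PEP3, 81.1, 90.6 and 58.2 FPKM after isoxaben, 47.0, 51.0 and 38.8 FPKM after PEP3, and 21.0, 20.8 and 21.7 FPKM after DMSO. The libraries of both isoxaben treatments overlapped each other and lay above those of PEP3, which lay above those of DMSO. BBE19 rose by 1.79 after isoxaben (SE 0.137, limma adjusted p 3.96e-07) and by 2.03 after both agents relative to DMSO (limma adjusted p 1.81e-07), and by 0.97 after both relative to PEP3 (limma adjusted p 5.20e-04). Its difference of 0.25 between isoxaben plus PEP3 and isoxaben did not pass (limma adjusted p 0.326).

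CELLOX1 (AT4G20860, chr4:11172622-11174467), which oxidises cellodextrins, had 60.2, 59.2 and 49.0 FPKM after isoxaben plus PEP3, 72.1, 67.9 and 52.3 FPKM after isoxaben, 33.2, 38.8 and 36.3 FPKM after PEP3, and 19.6, 21.0 and 23.1 FPKM after DMSO. Its order of groups was that of BBE19 except that the isoxaben mean was the highest, with overlap with the combined treatment. CELLOX1 rose by 1.54 after isoxaben (limma adjusted p 3.18e-07) and by 1.36 after both agents relative to DMSO (limma adjusted p 1.48e-06), and by 0.62 after both relative to PEP3 (limma adjusted p 0.00419). The difference of -0.18 between isoxaben plus PEP3 and isoxaben did not pass (limma adjusted p 0.402).

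BBE21 (AT4G20840), the oligogalacturonide oxidase OGOX2, starts right after BBE19 and moved the other way under isoxaben. Its level was 10.3, 10.00 and 10.8 FPKM after isoxaben plus PEP3, 7.90, 7.92 and 7.34 FPKM after isoxaben, 10.6, 9.17 and 10.08 FPKM after PEP3, and 12.5, 11.1 and 10.2 FPKM after DMSO. The isoxaben libraries were the lowest and the other 3 groups overlapped. BBE21 fell by 0.49 after isoxaben relative to DMSO (SE 0.0863, limma adjusted p 6.20e-04) and rose by 0.38 after isoxaben plus PEP3 relative to isoxaben (limma adjusted p 0.0181). The second call was lost without isoxaben replicate 3 (limma adjusted p 0.0528) and without isoxaben plus PEP3 replicate 3 (limma adjusted p 0.0687).

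BBE18 (AT4G20820), upstream of BBE19 in the same array, had 0.960, 1.07 and 1.18 FPKM after isoxaben plus PEP3, 1.65, 1.12 and 2.14 FPKM after isoxaben, 1.72, 1.61 and 1.53 FPKM after PEP3, and 3.13, 2.86 and 2.49 FPKM after DMSO. All 9 treated libraries lay below the DMSO libraries. BBE18 fell by 0.55 after isoxaben (limma adjusted p 0.00835) and by 0.89 after both agents relative to DMSO (limma adjusted p 3.46e-04), and its differences from either single treatment did not pass. One array therefore held genes called higher and genes called lower after isoxaben.

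**Figure D3:**
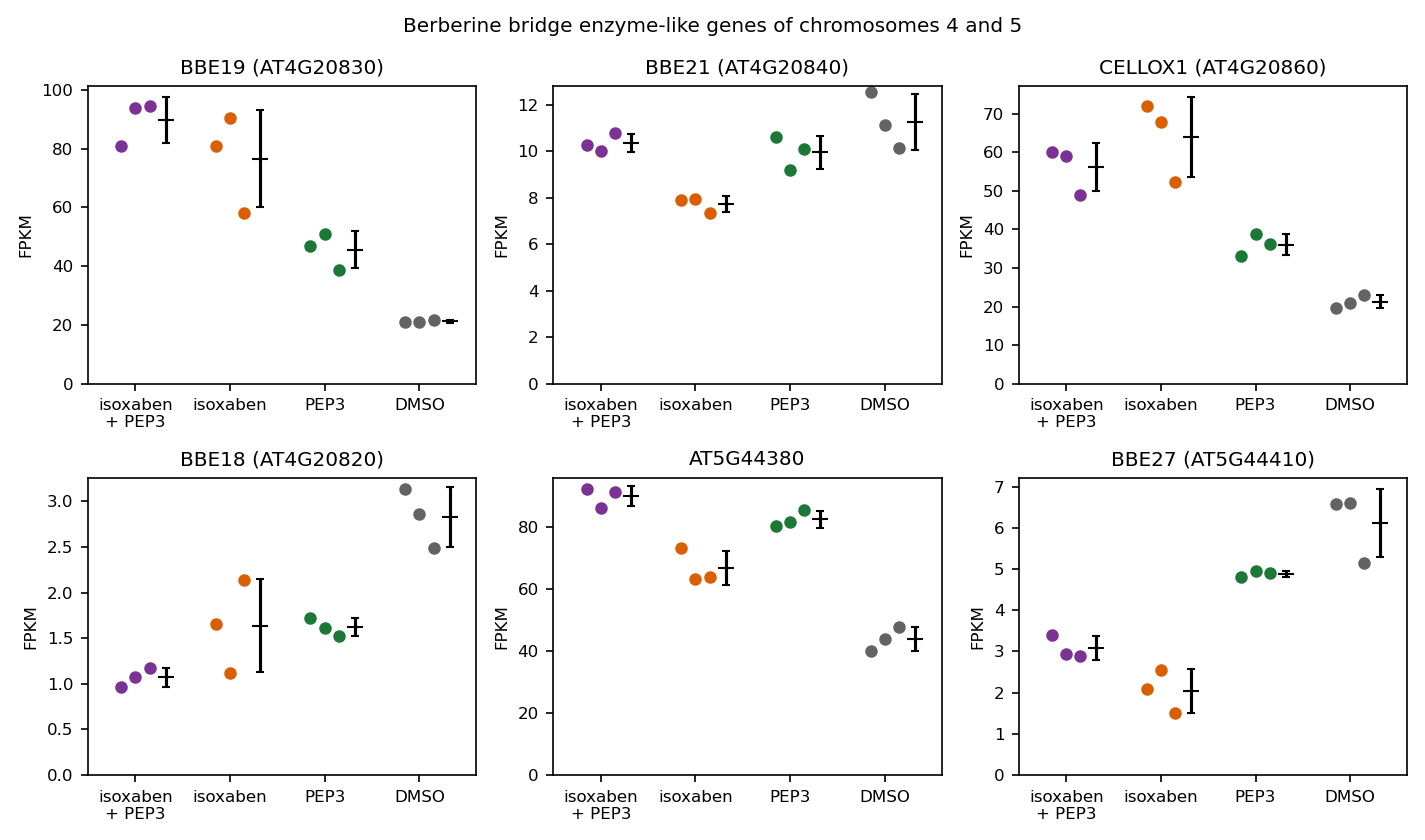
Level in FPKM (vertical axes, each starting at 0) of 6 berberine bridge enzyme-like genes of chromosomes 4 and 5, with a point for each library of isoxaben plus PEP3, isoxaben, PEP3 and DMSO and the mean ± SD of 3 libraries beside them. BBE19 and CELLOX1 are highest with isoxaben (49.0 to 94.7 FPKM in those 6 libraries), BBE21 and BBE27 are lowest under isoxaben alone, and AT5G44380 lies above its DMSO libraries in every treated library.

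On chromosome 5, AT5G44380 was the most highly expressed berberine bridge enzyme-like gene after DMSO. It had 92.3, 86.2 and 91.5 FPKM after isoxaben plus PEP3, 73.3, 63.3 and 63.9 FPKM after isoxaben, 80.2, 81.5 and 85.6 FPKM after PEP3, and 39.9, 44.0 and 47.8 FPKM after DMSO. The 4 groups did not overlap. AT5G44380 rose by 0.60 after isoxaben (SE 0.0752, limma adjusted p 3.83e-05) and by 1.02 after both agents relative to DMSO (limma adjusted p 3.98e-07), and by 0.43 after both relative to isoxaben (limma adjusted p 0.00417).

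BBE27 (AT5G44410), about 10 kb from AT5G44380, had the largest fall of any tested member. It had 3.41, 2.95 and 2.88 FPKM after isoxaben plus PEP3, 2.09, 2.56 and 1.499 FPKM after isoxaben, 4.81, 4.95 and 4.90 FPKM after PEP3, and 6.59, 6.62 and 5.16 FPKM after DMSO. Its 4 groups did not overlap. BBE27 fell by 1.23 after isoxaben relative to DMSO (SE 0.132, limma adjusted p 8.60e-06) and by 0.80 after both agents (limma adjusted p 4.27e-04). It was also called lower after both relative to PEP3 (-0.53, limma adjusted p 0.0237), a call lost without any 1 of the PEP3 libraries and without isoxaben plus PEP3 replicate 2 or 3, with adjusted p up to 0.0868. Its difference of 0.43 between isoxaben plus PEP3 and isoxaben missed the threshold (limma adjusted p 0.0659) and was called without isoxaben replicate 2 (limma adjusted p 0.0327). Between these genes, BBE25 rose by 1.12 after isoxaben relative to DMSO (limma adjusted p 4.39e-06). BBE25 was called higher after isoxaben plus PEP3 than after PEP3 by 0.39 (limma adjusted p 0.0482), in only 3 of 12 fits that left out 1 library. The call held only without DMSO replicate 2 or isoxaben replicate 2 or 3, and the adjusted p reached 0.145. BBE26 fell by 0.33 after isoxaben relative to DMSO (limma adjusted p 0.0354), a call lost without DMSO replicate 1 or 3 or isoxaben replicate 1 or 3, with adjusted p up to 0.169.

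The gulonolactone oxidase-like genes resemble the animal enzyme that makes ascorbate. GULLO2 (AT2G46750, chr2:19207991-19211021) was the only one of the 4 tested that was called in any comparison. It had 24.2, 21.6 and 21.4 FPKM after isoxaben plus PEP3, 12.1, 12.7 and 6.92 FPKM after isoxaben, 16.1, 19.6 and 20.8 FPKM after PEP3, and 4.46, 5.64 and 5.45 FPKM after DMSO. Its 4 groups did not overlap. GULLO2 rose by 0.87 after isoxaben (SE 0.173, limma adjusted p 0.00149) and by 1.92 after both agents relative to DMSO (limma adjusted p 2.41e-06), and by 1.05 after both relative to isoxaben (limma adjusted p 0.00249).

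The direct neighbours of GULLO2, GULLO5 and GULLO6, were not called. GULLO5 (AT2G46740), which oxidised gulonolactone when produced in tobacco cells, had 14.1, 10.9 and 11.5 FPKM after isoxaben plus PEP3, 17.1, 15.3 and 12.3 FPKM after isoxaben, 10.3, 12.8 and 10.6 FPKM after PEP3, and 12.9, 13.3 and 14.5 FPKM after DMSO. GULLO6 stayed between 0.344 and 1.29 FPKM. GULLO3 (AT5G11540) had 0.618, 0.991 and 1.02 FPKM after isoxaben plus PEP3, 0.928, 0.688 and 0.499 FPKM after isoxaben, 1.24, 1.33 and 0.676 FPKM after PEP3, and 0.987, 1.51 and 1.35 FPKM after DMSO, and its largest difference, -0.42 after isoxaben relative to DMSO, did not pass (limma adjusted p 0.0749).

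Among the relatives with primary metabolic roles, DWF1 (AT3G19820), a sterol reductase needed for brassinosteroid synthesis, was the most abundant member in each treatment. It had 90.7, 97.7 and 107 FPKM after isoxaben plus PEP3, 96.9, 93.9 and 95.03 FPKM after isoxaben, 102.4, 100.2 and 101.2 FPKM after PEP3, and 123, 118.1 and 121.8 FPKM after DMSO. The 9 treated libraries lay below the DMSO libraries. DWF1 fell by 0.34 after isoxaben (SE 0.0596, limma adjusted p 5.70e-04) and by 0.30 after both agents relative to DMSO (limma adjusted p 0.00182).

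DLD (AT5G06580), a D-lactate dehydrogenase, had 11.6, 12.1 and 10.9 FPKM after isoxaben plus PEP3, 14.6, 12.2 and 13.0 FPKM after isoxaben, 12.5, 13.0 and 14.2 FPKM after PEP3, and 13.9, 14.5 and 13.2 FPKM after DMSO. Its fall of 0.24 after both agents relative to DMSO was called (limma adjusted p 0.0367), but not without DMSO replicate 1 or 2 or isoxaben plus PEP3 replicate 1 or 3, with adjusted p up to 0.123. GLDH (AT3G47930), which completes ascorbate synthesis in mitochondria, had 20.4, 22.0 and 19.0 FPKM after isoxaben plus PEP3, 20.6, 21.1 and 21.9 FPKM after isoxaben, 17.8, 20.5 and 20.3 FPKM after PEP3, and 21.7, 24.4 and 20.5 FPKM after DMSO. D2HGDH (AT4G36400), a D-2-hydroxyglutarate dehydrogenase, had 14.2, 14.0 and 11.7 FPKM after isoxaben plus PEP3, 12.1, 10.5 and 14.7 FPKM after isoxaben, 11.5, 14.4 and 15.3 FPKM after PEP3, and 13.4, 11.9 and 12.8 FPKM after DMSO. The groups of GLDH and of D2HGDH overlapped, and no tested comparison called either gene.

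Summed over the tested berberine bridge enzyme-like genes, the level was 410 to 430 FPKM per library after isoxaben plus PEP3, 280.3 to 376 after isoxaben, 287 to 319 after PEP3 and 152 to 160.4 after DMSO. All 39 members together took 0.125% to 0.129% of the fragments after both agents, 0.0983% to 0.114% after isoxaben, 0.101% to 0.111% after PEP3 and 0.0789% to 0.0817% after DMSO. Isoxaben replicate 3 was the lowest of its group for 18 of the 26 tested members. Without it, isoxaben relative to DMSO called 17 members and isoxaben plus PEP3 relative to isoxaben called 9, of which 8 were higher and 1 was lower.

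The change with PEP3 can be set beside its size without isoxaben, which is the value that selected the family and is given here with no test. FOX2 and FOX4 differed by 2.04 and 1.92 between isoxaben plus PEP3 and isoxaben, and by 2.20 and 1.89 between PEP3 and DMSO. FOX1 and FOX5 differed by 0.63 and 0.77 in isoxaben-treated seedlings, and by 3.66 and 2.39 without isoxaben. The change with isoxaben present minus the change without it was therefore -3.03 (SE 0.336) for FOX1 and -1.62 (SE 0.172) for FOX5. For FOX2 it was -0.16 (SE 0.391) and for FOX4 0.03 (SE 0.183). FOX4 averaged 4.65 FPKM after both agents against 0.498 after isoxaben, and 3.32 after PEP3 against 0.161 after DMSO. As ratios these changes are not equal, because log2(FPKM + 1) compresses changes from levels near 0. The median of the difference between changes was -0.15 over the 26 members and -0.0093 over all genes tested. The change that is subtracted is the one that selected the family. That choice by itself pushes the members' values down, so nothing is read from the gap between these medians.

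**Figure D4:**
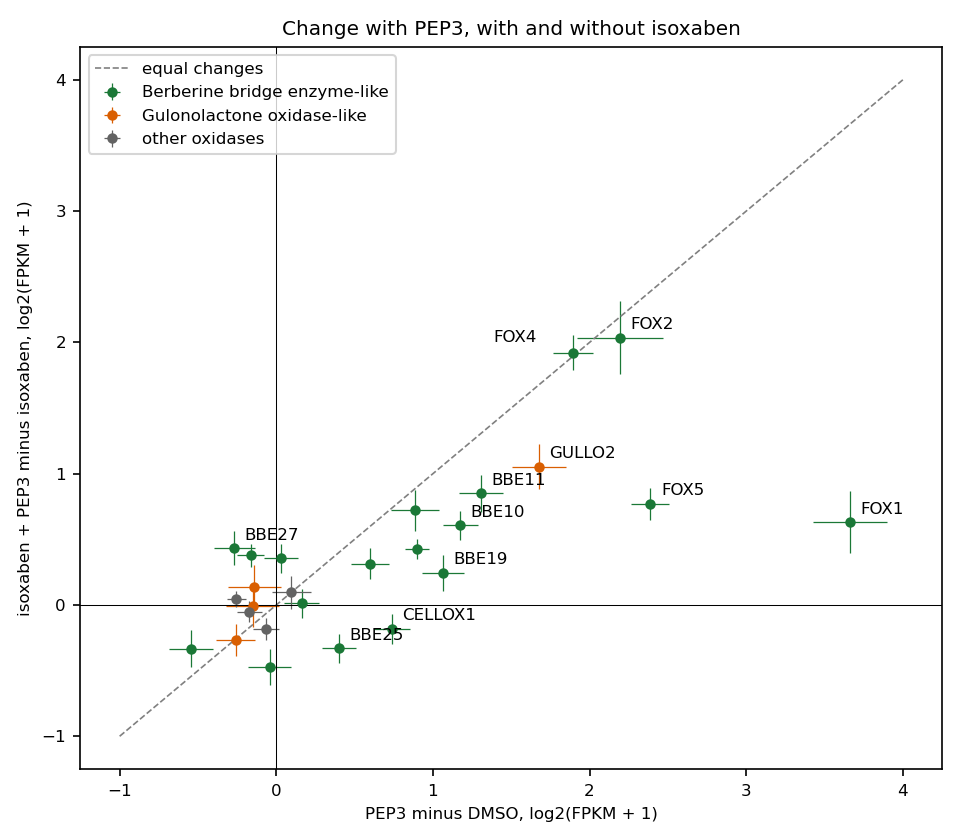
Change in log2(FPKM + 1) between isoxaben plus PEP3 and isoxaben (vertical axis) against the change between PEP3 and DMSO (horizontal axis, the difference that selected the family) for the 26 tested members, with bars of 1 SE, colours for the 3 subgroups and a dashed line where the changes are equal. FOX2 and FOX4 lie near the line, whereas FOX1 (3.66 across, 0.63 up) and FOX5 lie far below it.

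FOX1 acts with cytochrome P450 enzymes in the pathway of indole carbonyl nitrile, so 8 genes of that pathway and its regulators were read beside it. Relative to DMSO, 7 of the 8 were called higher after isoxaben and all 8 after isoxaben plus PEP3, where 17.3% and 16.9% of all genes were called higher. When PEP3 was added to isoxaben, 2 were called higher and 4 lower, where 3.32% and 4.09% of all genes were. After isoxaben plus PEP3 relative to PEP3, 6 were called higher and 0 lower, where 6.02% and 2.25% of all genes were. CYP82C2, which hydroxylates indole carbonyl nitrile, had 22.0, 28.3 and 24.2 FPKM after isoxaben plus PEP3, 0.195, 0.901 and 0.190 FPKM after isoxaben, 9.18, 21.9 and 26.1 FPKM after PEP3, and 0.0253, 0.151 and 0.147 FPKM after DMSO. Like FOX2 and FOX4, CYP82C2 was high in the libraries with PEP3 and under 1 FPKM in all others. It too passed the filter of 0.5 FPKM only through the treatments with PEP3, averaging 0.429 FPKM after isoxaben and 0.108 after DMSO. CYP82C2 is counted among the 8 called higher after isoxaben plus PEP3 relative to DMSO. It is also among the 2 called higher relative to isoxaben. CYP71A12, which acts one step before FOX1, rose by 1.83 after isoxaben plus PEP3 relative to isoxaben (limma adjusted p 6.16e-04), whereas CYP71A13 and CYP71B15 (PAD3) of the camalexin branch fell by 2.97 (limma adjusted p 6.90e-04) and 1.41 (limma adjusted p 0.00951), and the regulator MYB51 fell by 0.48 (limma adjusted p 0.0381). CYP79B3, at the entry to the pathway, fell by 0.47 (limma adjusted p 0.0315). All 4 of these were higher after isoxaben plus PEP3 than after PEP3: CYP71A13 by 1.96 (limma adjusted p 0.00726), CYP71B15 by 1.37 (limma adjusted p 0.00841), MYB51 by 1.20 (limma adjusted p 5.32e-05) and CYP79B3 by 0.45 (limma adjusted p 0.0341). The last call was lost without any 1 library of isoxaben plus PEP3 or of PEP3, with adjusted p up to 0.115, and that of CYP71A13 with voom on recovered fragments (adjusted p 0.151). With 1 library left out, the calls of MYB51 and CYP79B3 for isoxaben plus PEP3 relative to isoxaben were lost in 7 and 5 of 12 fits, with adjusted p up to 0.122 and 0.0990. Those of MYB51 were the fits without any 1 library of isoxaben plus PEP3 or of isoxaben, or without DMSO replicate 2, and those of CYP79B3 the fits without any 1 library of isoxaben plus PEP3 or without isoxaben replicate 1 or 2.

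A second list held 12 genes of wall fragment signalling and extracellular hydrogen peroxide, of which 9 passed the filter. Relative to DMSO, 8 of the 9 were called higher after isoxaben and 8 after isoxaben plus PEP3, beside the shares of all genes given for the first list. When PEP3 was added to isoxaben, 3 rose and 3 fell. After isoxaben plus PEP3 relative to PEP3, 4 were called higher and 0 lower: PGIP2 by 1.20 (limma adjusted p 3.08e-05), RBOHD by 0.63 (limma adjusted p 4.02e-04), PER71 by 0.49 (limma adjusted p 0.00149) and RBOHF by 0.34 (limma adjusted p 0.0101). When PEP3 was added to isoxaben, the peroxidase gene PER71 rose by 1.18 (limma adjusted p 2.97e-06), and the wall-associated kinase genes WAK1 and WAK2 rose by 0.65 and 0.51 (limma adjusted p 0.00154 and 0.00130). PGIP2, which encodes an inhibitor of pectin-degrading polygalacturonases, fell by 0.95 (limma adjusted p 4.99e-04), the NADPH oxidase gene RBOHD fell by 0.47 (limma adjusted p 0.00528) and the peroxidase gene PER33 fell by 0.36 (limma adjusted p 0.0301). The call of PER33 was lost in 5 of 12 fits that left out 1 library, those without isoxaben replicate 2 or 3 or without any 1 library of isoxaben plus PEP3, with adjusted p up to 0.0984. In the same comparison BBE19 and CELLOX1 were not called.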

How the data were processed

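The deposited data are FPKM of 32833 genes in 12 libraries, computed by the authors from poly(A)-selected RNA read as paired ends on an Illumina instrument, per the labels' protocols. HISAT2 (version 2.0.5) and the build TAIR10 are named in the submitters' processing notes. The program that counted fragments, its annotation and its use of strand were not given in the sources used here. Every column of values was matched to a library by its name. All 39 members had the same start and end in RefSeq TAIR10.1.

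Multiplied by gene length, the deposited FPKM of a library fell on whole numbers of fragments (100% of values, tolerance 0.01 fragments), from which the fragments per library were taken. Because FPKM are not counts, limma (version 3.58.1, R 4.3.3) was fitted to log2(FPKM + 1), a pseudocount of 1, for 20248 genes averaging 0.5 FPKM or more, with 1 mean per treatment, a trended prior, 8 residual degrees of freedom and Benjamini-Hochberg adjustment over all of these genes. It was tested on simulated data first. No p is given for PEP3 against DMSO, which selected the family, or for the difference between PEP3 changes with and without isoxaben, which contains it.

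The members, gene lists, tests and rules were chosen with earlier results of these data known. Genes were named with the value of every library if they had a role known from biochemistry, were among the 3 highest or 3 lowest called members of a tested comparison, or were among the 6 members with the highest mean FPKM. DWF1, CELLOX1 and OGOX4 are called DIM, FAD-OXR and SEC1A in the deposited table, and BBE numbers were taken from its descriptions. Protein identity and closest copies were computed with Biopython 1.88 and BLAST 2.17.0 from RefSeq TAIR10.1. Motifs were searched on both strands of the 300 bases before each gene start. Genes within 30000 bases of each other were joined into an array.

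The alternatives were a pseudocount of 0.1, no filter, a filter at 2 FPKM, TPM and median-of-ratios scaling, a replicate block, voom on recovered fragments, fits of only the libraries compared, a required log2 change of 1, and leaving out each library.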

Additional observations from a re-analysis of the deposited data

Results flagged for a closer look

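BBE25 and BBE27 were picked from the 26 tested members by the order of their libraries, not by a test. For BBE25 (AT5G44390), the libraries with PEP3 moved opposite ways with and without isoxaben. Its level was 16.8, 14.8 and 16.1 FPKM after isoxaben plus PEP3 and 19.3, 23.7 and 18.2 FPKM after isoxaben, so every combined library lay below every isoxaben library. This difference of -0.33 did not pass (limma adjusted p 0.0957), though it did with voom on recovered fragments (adjusted p 0.0339). The level of BBE25 differed in the other direction without isoxaben. It was 11.5, 11.3 and 13.1 FPKM after PEP3 and 8.08, 10.3 and 8.14 FPKM after DMSO, so every PEP3 library lay above every DMSO library. The change with isoxaben present minus the change without it was -0.73 (SE 0.157) on the log2 scale, and this difference was not tested because it contains the contrast by which the family was chosen.

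For BBE27 (AT5G44410), the opposite held: every library of isoxaben plus PEP3 lay above every isoxaben library, and every PEP3 library lay below every DMSO library. As given above, its difference of 0.43 between isoxaben plus PEP3 and isoxaben did not pass (limma adjusted p 0.0659). The change with isoxaben present minus the change without it was 0.70 (SE 0.186), and this difference was not tested either.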

How the results depend on the processing

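Under the alternatives other than a required size of change, the number of members called stayed within 1.5 times its value in the 4 tested comparisons. Where a call also needed a log2 change of at least 1, 7 members were called for isoxaben relative to DMSO (6 higher, 1 lower), 11 for isoxaben plus PEP3 relative to DMSO, 3 relative to isoxaben (all higher) and 0 relative to PEP3, fewer by the construction of that rule. For PEP3 relative to DMSO, the contrast that chose the family, that rule counts 8, given as a description only. With 1 library left out, the counts ranged from 14 to 18, from 16 to 18, from 8 to 11 and from 4 to 8 in the same order of comparisons.

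No pairing by replicate number was visible: of 18 pairs with the same number, 1 had a correlation of deviations over 0.1 (range -0.11 to 0.103). With 3 libraries per treatment this cannot exclude a shared day or plate, which the labels do not give. With a replicate block, 17, 17, 10 and 5 members were called in that order, and the calls of FOX4 for isoxaben relative to DMSO (0.0542) and of DLD for isoxaben plus PEP3 relative to DMSO (0.0577) had a limma adjusted p over the threshold, as did that of BBE25 for isoxaben plus PEP3 relative to PEP3 (0.0626), while the fall of BBE16 for isoxaben plus PEP3 relative to isoxaben came under it (0.0347). Without a filter, the calls of BBE8 and BBE26 for isoxaben relative to DMSO, of BBE8, CYP79B3, CYP71B15, MYB51 and PER33 for isoxaben plus PEP3 relative to isoxaben, and of BBE25, BBE27, CYP79B3, CYP71A13 and CYP71B15 for isoxaben plus PEP3 relative to PEP3 were lost, with adjusted p from 0.0727 to 0.148. In fits of only the libraries of the treatments compared, the calls for isoxaben relative to DMSO of FOX4 (0.153), BBE8 (0.0752), MEE23 (0.0590) and BBE26 (0.0855) were lost, as was that of CYP79B3 for isoxaben plus PEP3 relative to isoxaben (0.0627). The call of FOX4 was also lost with a filter at a mean of 2 FPKM (0.0577), and that of BBE25 for isoxaben plus PEP3 relative to PEP3 with a pseudocount of 0.1 (0.0503) and TPM scaling (0.0690). BBE10 was called higher for isoxaben plus PEP3 relative to PEP3 with voom (0.0441). For isoxaben plus PEP3 relative to isoxaben, BBE16 was called lower with TPM scaling (0.0472) and voom (0.0303).

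Reversals of sign concerned values that were not called. TPM scaling gave -0.012 for AT1G30760 (isoxaben plus PEP3 relative to PEP3) and -0.0045 for MEE23 (isoxaben plus PEP3 relative to isoxaben). With 1 library left out, the log2 change lay between -0.0912 and 0.13 and between -0.11 and 0.11 for these 2 results. For isoxaben relative to DMSO it lay between -0.11 and 0.0086 for GLDH, between -0.16 and 0.0647 for D2HGDH and between -0.16 and 0.0315 for FOX2. For isoxaben plus PEP3 relative to isoxaben it lay between -0.0167 and 0.10 for DWF1 and between -0.0092 and 0.21 for D2HGDH. For isoxaben plus PEP3 relative to PEP3 it lay between -0.10 and 0.0142 for DWF1, between -0.15 and 0.0438 for D2HGDH and between -0.66 and 0.0312 for FOX2. The cause was not tested. At these depths the 13 members under the filter had too few fragments for a comparison.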
